A study of Homo sapiens with 12 samples.

Results

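The 10 genes described here are effectors and standard targets of the Hippo pathway, and they were taken by symbol from a table of 65975 genes. They comprise the targets CYR61, CTGF, ANKRD1 and AMOTL2, the pathway components LATS2 and AJUBA, the coactivators YAP1 and WWTR1 (whose protein is TAZ), and the DNA-binding factors TEAD1 and TEAD4. CYR61 and CTGF were chosen because they fell mainly in Rh30 cells, so their values are a description with no test, and the other 8 genes were tested. RNA-seq was performed on 12 libraries from 2 rhabdomyosarcoma (RMS) lines, in order to define the effects of depleting KDM3A, a histone demethylase that removes methyl groups from lysine 9 of histone H3. RD is a fusion-negative RMS line and Rh30 a fusion-positive one that carries PAX3-FOXO1. Cells of each line were transduced with lentivirus for a Scramble control shRNA or for 1 shRNA against KDM3A (KDM3A-sh2), were selected with puromycin, and were profiled in triplicate, which gave 3 libraries in each of the 4 groups.

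All 4 groups thus share lentiviral transduction and puromycin selection, and each line and the single KDM3A shRNA stand alone as a model. RD cells were grown in DMEM and Rh30 cells in RPMI, so that line and medium cannot be told apart. Whether the triplicates were separate cultures is not stated, and p-values then measure only the spread between these libraries, which may be technical. Values are FPKM, a fragment density scaled by transcript length and by the mapped reads of a library, so that levels of different genes can be compared. The number of reads in each library was not given. The smallest steps between low values put relative depth between 0.860 and 1.198 times that of the median library. Of 6 muscle-lineage markers, 5 had a mean of 1 FPKM or more in every group (MYF5 was not), with summed levels between 2123 and 2861 FPKM. None of 3 endothelial markers reached a group mean of 1 FPKM, nor did PTPRC or CDH1, although PECAM1 was at 1.197 and 1.005 FPKM in single Rh30 libraries. CD68 was above 1 FPKM in RD cells only, where the summed leukocyte markers ran from 14.7 to 16.6 FPKM with Scramble and from 21.9 to 24.1 FPKM with KDM3A-sh2. Of 3 epithelial markers, KRT18 passed 1 FPKM in all groups and EPCAM in Rh30. The muscle-lineage sum was also higher with KDM3A-sh2 (2629 to 2751 FPKM in RD and 2830 to 2861 FPKM in Rh30) than with Scramble (2123 to 2343 FPKM and 2453 to 2724 FPKM), but its members moved both ways. In RD, MYOD1, MYOG and CDH15 were called lower (log2 fold changes -0.24, -0.14 and -0.60) and DES and CHRNA1 higher (0.23 and 0.42). In Rh30, CHRNA1 and CDH15 were called lower (-0.64 and -0.25) and MYOD1 and MYOG higher (0.28 and 0.56). The part of these shifts in the results below was not tested.

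In the Hippo pathway, the kinases MST1 and MST2 (genes STK4 and STK3), with SAV1, activate LATS1 and LATS2, which act together with MOB1 proteins. LATS kinases phosphorylate YAP and TAZ, holding them in the cytoplasm or marking them for degradation. When LATS activity is low, YAP and TAZ enter the nucleus, bind TEAD factors and switch on genes such as CYR61, CTGF and ANKRD1. Some targets, AMOTL2 and LATS2 among them, restrain YAP in turn. The pathway responds to cell density, cell shape and tension in the actin cytoskeleton, and it is known for roles in muscle progenitor growth and in RMS. Messenger RNA levels do not report the phosphorylation or location of YAP and TAZ, which were not measured here. In bulk RNA, fewer cells expressing a gene and less RNA in each cell cannot be told apart.

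The shRNA target was reduced in both lines. KDM3A was at 35.8, 33.9 and 30.9 FPKM in the RD Scramble libraries and at 12.0, 11.2 and 13.4 FPKM in the RD KDM3A-sh2 libraries. In Rh30 it was at 27.8, 29.2 and 32.0 FPKM with Scramble and at 13.7, 13.2 and 15.4 FPKM with KDM3A-sh2. The groups did not overlap in either line. On the log2(FPKM + 1) scale used for all fold changes below, KDM3A fell by 1.39 in RD (standard error 0.08, limma adjusted p = 5.00e-05) and by 1.02 in Rh30 (standard error 0.08, limma adjusted p = 0.000348). The drop was thus smaller in Rh30, by 0.37 (limma adjusted p = 0.0388), a call that was lost under 12 of 19 alternatives.

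CYR61 and CTGF encode secreted matricellular proteins of the CCN family (CCN1 and CCN2), which bind integrins and matrix and are the most widely used transcriptional readouts of YAP and TAZ. CYR61 (ENSG00000142871) lies on chromosome 1 of GRCh38 from 85580761 to 85583962, on the plus strand. In Rh30 cells it was at 120.0, 118 and 117 FPKM with Scramble and at 32.8, 34.7 and 34.9 FPKM with KDM3A-sh2. In RD cells it was at 179.9, 178 and 173 FPKM with Scramble and at 183, 191 and 189 FPKM with KDM3A-sh2. All 3 depleted Rh30 libraries thus sat far below their controls, at 28.9% of the control mean, whereas the depleted RD libraries sat slightly above theirs, at 106% of the control mean. The log2 fold change was -1.76 in Rh30 and 0.08 in RD, given as a description.

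CTGF (ENSG00000118523) lies on chromosome 6 from 131948176 to 131951373, on the minus strand. It was at 23.0, 21.5 and 22.8 FPKM in the Rh30 Scramble libraries and at 7.72, 8.02 and 7.59 FPKM in the Rh30 KDM3A-sh2 libraries. In RD it was at 208, 208 and 204 FPKM with Scramble and at 223, 230.3 and 239 FPKM with KDM3A-sh2. The Rh30 level fell to 34.7% of its control mean and the RD level stood at 112% of its own. The log2 fold change was -1.42 in Rh30 and 0.16 in RD, again as a description. An annotated gene on the opposite strand, AL133346.1, overlaps CTGF, and the strand setting of the read counting is not given in the sources used here. The lines also differed before depletion. CTGF was 9.22 times as high in RD Scramble as in Rh30 Scramble libraries, by the ratio of the means, whereas for CYR61 that ratio was 1.496.

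**Figure D1:**
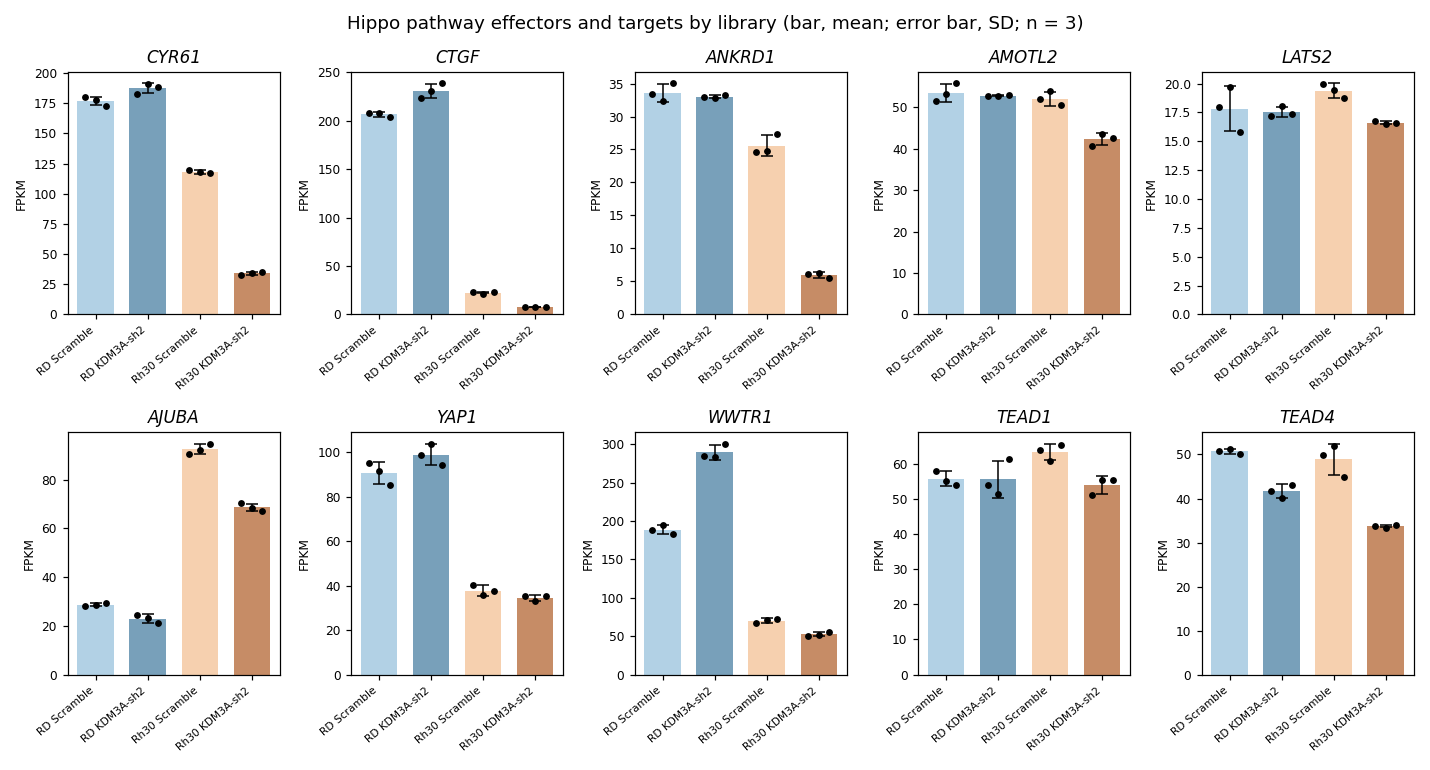
FPKM (vertical axes, each starting at 0) of the 10 genes in the 4 groups. Points are single libraries, bars are group means and error bars are SD (n = 3). CYR61, CTGF and ANKRD1 are low in Rh30 KDM3A-sh2 cells (means of 34.1, 7.78 and 5.96 FPKM), and WWTR1 is highest in RD KDM3A-sh2 cells (mean of 289 FPKM).

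ANKRD1, a target besides the pair chosen on their drop in Rh30, gave the largest drop among the 8 tested genes. It encodes a cardiac ankyrin repeat protein that binds titin in the sarcomere, and it is a direct YAP target in many cells. The gene (ENSG00000148677) lies on chromosome 10 from 90912096 to 90921276, on the minus strand. In Rh30 it was at 24.6, 24.7 and 27.4 FPKM with Scramble and at 6.13, 6.26 and 5.48 FPKM with KDM3A-sh2. The RD libraries were at 33.5, 32.3 and 35.0 FPKM with Scramble and at 32.9, 32.8 and 33.2 FPKM with KDM3A-sh2. The Rh30 groups were far apart and the RD groups overlapped. The log2 fold change was -1.93 in Rh30 (standard error 0.07, limma adjusted p = 5.41e-05) and -0.02 in RD (standard error 0.05, limma adjusted p = 0.700). The test of the difference between the lines gave -1.91 (95% interval -2.09 to -1.73, limma adjusted p = 2.01e-07).

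The promoter windows of CTGF and ANKRD1 are shown because these 2 genes had the largest drops among the members with a window in the RefSeq promoter table (GRCh38.p14, 250 bases before to 50 after the annotated start). Capitals mark CATTCC, the core of the MCAT element that TEAD factors bind, read on either strand, so that GGAATG is the same word on the opposite strand. The downstream of the AMOTL2 windows is shown beside them as an example with a single copy, which LATS2, AJUBA and YAP1 hold too. It was picked with the changes known, and a relation between copies and drops was not tested. Coordinates are chr6:131951323-131951622 for CTGF, chr10:90921038-90921337 for ANKRD1 and chr3:134374398-134374697 for AMOTL2, all on the minus strand.
CTGF: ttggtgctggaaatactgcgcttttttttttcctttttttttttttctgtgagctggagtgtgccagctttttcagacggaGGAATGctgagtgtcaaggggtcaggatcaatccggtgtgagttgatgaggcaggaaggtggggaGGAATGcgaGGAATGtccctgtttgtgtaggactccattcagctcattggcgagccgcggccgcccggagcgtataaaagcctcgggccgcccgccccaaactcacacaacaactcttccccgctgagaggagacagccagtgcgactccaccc
ANKRD1: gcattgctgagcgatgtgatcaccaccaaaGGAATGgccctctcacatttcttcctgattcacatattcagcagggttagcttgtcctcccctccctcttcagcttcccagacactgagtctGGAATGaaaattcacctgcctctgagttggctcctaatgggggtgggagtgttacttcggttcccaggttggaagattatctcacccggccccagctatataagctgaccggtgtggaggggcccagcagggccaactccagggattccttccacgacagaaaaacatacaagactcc
AMOTL2: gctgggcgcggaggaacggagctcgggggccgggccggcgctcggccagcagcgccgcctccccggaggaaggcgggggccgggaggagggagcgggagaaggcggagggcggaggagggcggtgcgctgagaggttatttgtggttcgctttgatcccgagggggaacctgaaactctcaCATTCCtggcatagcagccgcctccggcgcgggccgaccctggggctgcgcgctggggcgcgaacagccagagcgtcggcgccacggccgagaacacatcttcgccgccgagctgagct

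CTGF held CATTCC 3 times, with first bases 169, 104 and 95 bases before the start, and ANKRD1 held it 2 times, 220 and 128 bases before the start. Of all 35116 windows in the table, 14.0% held the word at least once, 1.37% at least 2 times and 0.128% at least 3 times. Windows were present for 7 of the 10 genes (CYR61, TEAD1 and TEAD4 had none), and 6 of their 10 windows, in 6 genes, held CATTCC. AMOTL2 (69 bases before the start), LATS2, AJUBA (59 bases before) and YAP1 (162 bases before) each held it 1 time, and neither window of WWTR1 did. In LATS2 the word lay after the start. TGANTCA, a loose form of the AP-1 word with any base at N, was present in ANKRD1 alone, against 7.71% of all windows. There it read TGATTCA, not TGACTCA or TGAGTCA, and did not overlap the CATTCC words. The CArG box, which SRF binds, was present in no window of the members, against 1.29% of all. The words are matches in these letters only, and no binding was measured here.

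AMOTL2 and LATS2 are targets that act back on the pathway. AMOTL2, an angiomotin-like protein that binds YAP at cell junctions, was at 51.9, 53.8 and 50.4 FPKM in Rh30 Scramble libraries and at 40.6, 43.5 and 42.6 FPKM with KDM3A-sh2. RD libraries gave 51.6, 53.1 and 55.7 FPKM with Scramble and 52.7, 52.7 and 52.9 FPKM with KDM3A-sh2. The Rh30 groups did not overlap, and the RD values after depletion lay within those before it. AMOTL2 fell by 0.29 in Rh30 (standard error 0.05, limma adjusted p = 0.00513), its RD change of -0.02 was not called (limma adjusted p = 0.756), and the lines differed by -0.28 (limma adjusted p = 0.00521). LATS2, a kinase that inactivates YAP and TAZ, was at 20.0, 19.5 and 18.7 FPKM in Rh30 Scramble and at 16.8, 16.5 and 16.5 FPKM in Rh30 KDM3A-sh2 libraries. The RD values were 18.0, 19.7 and 15.8 FPKM with Scramble and 17.2, 18.0 and 17.3 FPKM with KDM3A-sh2. LATS2 fell by 0.21 in Rh30 (limma adjusted p = 0.0216). This small change lost its call when any 1 of 5 Rh30 libraries was left out (adjusted p between 0.0560 and 0.0721), the exception being Scramble replicate 3. AMOTL2 (ENSG00000114019) lies on chromosome 3 from 134355874 to 134375479 on the minus strand, where RPL39P5 and MIR6827 overlap it on the same strand. LATS2 (ENSG00000150457) lies on chromosome 13 from 20973032 to 21061547 on the minus strand. It is overlapped by RNU4-9P on the same strand and by LATS2-AS1 on the opposite strand. The RD change of LATS2 was -0.02 (limma adjusted p = 0.872), and the difference between the lines was not called (-0.19, 95% interval -0.40 to 0.02).

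AJUBA is a LIM-domain protein that binds and restrains LATS kinases at junctions. It was at 90.7, 92.2 and 94.8 FPKM in Rh30 Scramble and at 70.3, 68.3 and 67.3 FPKM in Rh30 KDM3A-sh2 libraries. RD levels were 28.1, 28.6 and 29.4 FPKM with Scramble and 24.6, 23.4 and 21.2 FPKM with KDM3A-sh2. The groups were separate in both lines. AJUBA (ENSG00000129474) lies on chromosome 14 from 22971174 to 22982642 on the minus strand, where AL132780.3 overlaps it on the same strand. AJUBA fell by 0.43 in Rh30 (standard error 0.04, limma adjusted p = 0.000548) and by 0.31 in RD (standard error 0.06, limma adjusted p = 0.00783). A difference between these changes was not detected (-0.12, 95% interval -0.27 to 0.04, limma adjusted p = 0.248).

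The paralogous coactivators differed from each other. YAP1 was at 40.2, 35.64 and 37.7 FPKM in Rh30 Scramble and at 35.3, 33.0 and 35.58 FPKM in Rh30 KDM3A-sh2 libraries, groups that nearly touched. In RD, YAP1 was at 95.1, 91.4 and 85.5 FPKM with Scramble and at 98.8, 104 and 94.3 FPKM with KDM3A-sh2. Neither change was called, with -0.12 in Rh30 (95% interval -0.27 to 0.02, limma adjusted p = 0.160) and 0.13 in RD (limma adjusted p = 0.111). Their difference of -0.25 passed narrowly (limma adjusted p = 0.0425) and lost its call under 11 of 19 alternatives, whose adjusted p ranged from 0.0246 to 0.0961. WWTR1, which encodes TAZ, moved in opposite directions in the lines. It was at 67.4, 70.7 and 73.0 FPKM in Rh30 Scramble and at 50.5, 51.2 and 55.5 FPKM in Rh30 KDM3A-sh2 libraries. In RD it was at 188, 194 and 183 FPKM with Scramble and at 284, 283 and 301 FPKM with KDM3A-sh2. Every depleted RD library was thus above, and every depleted Rh30 library below, its controls. WWTR1 fell by 0.42 in Rh30 (standard error 0.05, limma adjusted p = 0.00217) and rose by 0.61 in RD (standard error 0.04, limma adjusted p = 6.63e-05), which is 1.53 times its RD control. The difference between the lines was -1.03 (95% interval -1.18 to -0.89, limma adjusted p = 2.04e-06). YAP1 (ENSG00000137693) lies on chromosome 11 from 102110461 to 102233423 on the plus strand, and WWTR1 (ENSG00000018408) lies on chromosome 3 from 149517235 to 149736714 on the minus strand. Both overlap annotated genes on the opposite strand, AP000942.2 and WWTR1-AS1 respectively, and WWTR1-IT1 overlaps WWTR1 on the same strand.

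TEAD factors carry no activation domain of their own and recruit YAP or TAZ to DNA. TEAD1 (ENSG00000187079) lies on chromosome 11 from 12674591 to 12944483 on the plus strand. AC013549.3 overlaps it on the same strand and annotated genes such as AC013549.2 on the opposite strand. TEAD4 (ENSG00000197905) lies on chromosome 12 from 2959330 to 3040673 on the plus strand. TEAD1 was at 64.0, 60.8 and 65.3 FPKM in Rh30 Scramble and at 51.0, 55.4 and 55.4 FPKM in Rh30 KDM3A-sh2 libraries. For RD, the libraries gave 58.0, 55.2 and 54.0 FPKM with Scramble and 53.9, 51.3 and 61.3 FPKM with KDM3A-sh2, with overlapping groups. TEAD1 fell by 0.23 in Rh30 (limma adjusted p = 0.0179). Without Scramble replicate 1 the adjusted p was 0.0577, and without KDM3A-sh2 replicate 1 it was 0.0560. In RD the TEAD1 change was -0.01 (limma adjusted p = 0.934), and the difference between the lines missed the threshold (-0.22, 95% interval -0.42 to -0.02, limma adjusted p = 0.0956). TEAD4, which is induced during myogenic differentiation, was at 49.8, 51.9 and 44.9 FPKM in Rh30 Scramble and at 33.9, 33.4 and 34.0 FPKM in Rh30 KDM3A-sh2 libraries. In RD it was at 50.8, 51.3 and 50.02 FPKM with Scramble and at 41.8, 40.1 and 43.2 FPKM with KDM3A-sh2. The groups did not overlap in either line. TEAD4 fell by 0.52 in Rh30 (standard error 0.06, limma adjusted p = 0.00153) and by 0.28 in RD (standard error 0.04, limma adjusted p = 0.00236). The difference between the lines was -0.24 (limma adjusted p = 0.0276), a call lost under 9 of 19 alternatives.

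Counted together, 7 of the 8 tested genes fell in Rh30 and none rose, where 13.2% of the 17803 genes tested were called lower and 15.3% higher. The number called lower was 5 without Scramble replicate 1 or without KDM3A-sh2 replicate 1. Requiring a change of at least 1.5 times left ANKRD1 alone, where 538 of 17803 genes were called lower. The median log2 fold change was -0.36 over the 8 genes and 0.03 over all genes tested. In RD, 2 of the 8 fell (AJUBA and TEAD4) and 1 rose (WWTR1), where 19.5% of 17988 genes were called lower and 21.6% higher. The RD median was -0.02 over the 8 genes and 0.01 over all. In the test of the difference, Rh30 minus RD, 5 of the 8 were called negative (ANKRD1, WWTR1, AMOTL2, YAP1 and TEAD4) and none positive, against 13.4% and 14.4% of 18517 genes. That count was 3 when any 1 of 5 libraries was left out, namely Rh30 Scramble replicate 1, Rh30 KDM3A-sh2 replicates 1 and 2, RD Scramble replicate 3 and RD KDM3A-sh2 replicate 1. Rescaling every library to the same summed FPKM turned the genome-wide split of that test from 2665 positive and 2486 negative to 2061 and 3015. The two-sided exact permutation test, applied gene by gene to 3 and 3 libraries, has a smallest possible p of 0.1. ANKRD1, AMOTL2, LATS2, AJUBA, YAP1, WWTR1, TEAD1 and TEAD4 all reached that value in Rh30, and AJUBA, WWTR1 and TEAD4 in RD. Reaching it means only that the libraries of the groups did not overlap, and YAP1 in Rh30 was not called by limma. The share of all genes that reach it was not computed, so these counts are not read as a result about the members.

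**Figure D2:**
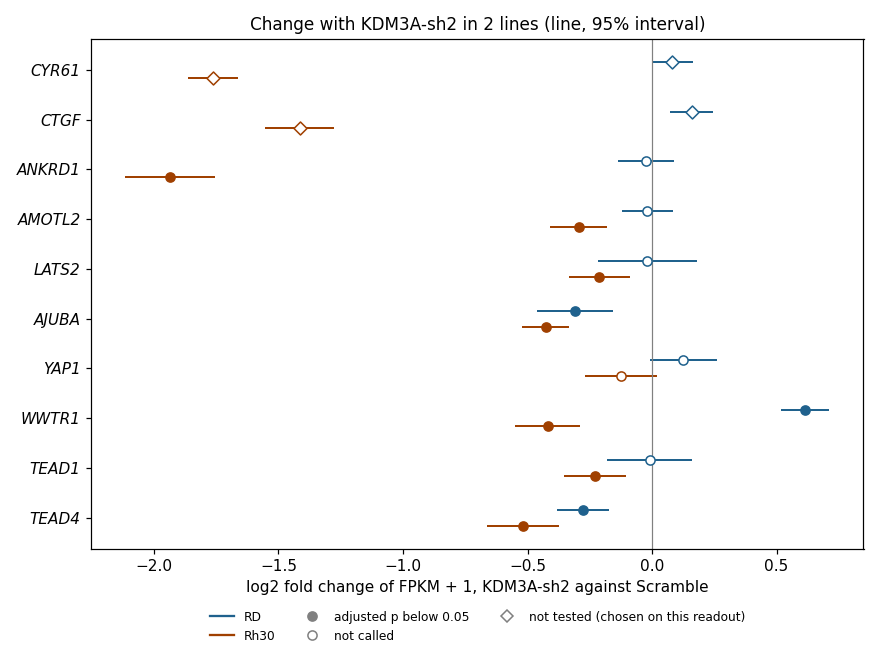
Log2 fold change of FPKM + 1, KDM3A-sh2 against Scramble (horizontal axis), for the 10 genes in RD (blue) and Rh30 (brown), with 95% intervals (lines). Filled points are called at an adjusted p below 0.05 and diamonds are the genes chosen on this readout. The intervals drawn for the diamonds take no account of that choice and are not a test. CYR61, CTGF and ANKRD1 lie near 0 in RD and between -1.93 and -1.42 in Rh30, and WWTR1 lies at 0.61 in RD and -0.42 in Rh30.

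Without depletion, the lines used the pathway genes at different levels. In RD Scramble cells the order was CTGF (207 FPKM), WWTR1 (188 FPKM), CYR61 (177 FPKM), YAP1 (90.7 FPKM), TEAD1 (55.7 FPKM), AMOTL2 (53.5 FPKM), TEAD4 (50.7 FPKM), ANKRD1 (33.6 FPKM), AJUBA (28.7 FPKM) and LATS2 (17.8 FPKM). In Rh30 Scramble cells it was CYR61 (118 FPKM), AJUBA (92.6 FPKM), WWTR1 (70.4 FPKM), TEAD1 (63.4 FPKM), AMOTL2 (52.1 FPKM), TEAD4 (48.9 FPKM), YAP1 (37.9 FPKM), ANKRD1 (25.6 FPKM), CTGF (22.4 FPKM) and LATS2 (19.4 FPKM). Neighbours in the order had overlapping libraries only for TEAD1 and AMOTL2 in RD and for AMOTL2 and TEAD4 in Rh30. After depletion, WWTR1 stood first in RD, and CYR61 moved from the first to the sixth place in Rh30, between YAP1 and TEAD4, with libraries overlapping both. Among genes at 1 FPKM or more, CTGF stood at the 94.6th percentile in RD Scramble and at the 58.0th in Rh30 Scramble.

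For the 8 tested genes, the comparison of Rh30 with RD Scramble libraries called 3 lower and 2 higher, where 39.6% of 18357 genes were called lower and 35.0% higher, so the shares of the members lie near the background. YAP1 was lower in Rh30 by a log2 difference of -1.24 (limma adjusted p = 2.17e-06), WWTR1 by -1.41 (limma adjusted p = 2.60e-07) and ANKRD1 by -0.38 (limma adjusted p = 0.000998). AJUBA was higher by 1.65 (limma adjusted p = 9.57e-08) and TEAD1 by 0.18 (limma adjusted p = 0.0110). The TEAD1 call was lost when libraries were rescaled to the same sum, which moved the median of all genes in this comparison from -0.04 to -0.14. Under that rescaling, with the shift left in, the TEAD1 difference was 0.07 and not called (limma adjusted p = 0.254), and AMOTL2 and TEAD4 were then called lower, at -0.15 and -0.16. These Scramble libraries are the controls of the depletion comparisons as well.

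A wider look at YAP and TAZ targets used the 17 other genes of a 22-gene pan-cancer signature. In RD, 11 of the 16 tested genes rose with KDM3A-sh2 and none fell (median log2 fold change 0.36, against 0.01 over all genes tested), where 21.6% of all genes were called higher and 19.5% lower. In Rh30, 6 of 15 fell and 1 rose (median -0.25, against 0.03), where 13.2% of all genes were called lower and 15.3% higher. The difference between the lines was called in 10 of 17, all of them negative (median -0.50, against 0.02), where 13.4% of all genes were called negative. IGFBP3 is among them, although it passed the filter through RD alone and had no level in Rh30 from which to fall. NT5E (mean of 0.122 FPKM in Rh30 Scramble) and FOXF2 (0.356 FPKM in RD Scramble) also entered through 1 line alone and were not called. The median covers all 17, so this count and median are a description. The calls were thus upward in RD and mostly downward in Rh30. With a minimum change of 1.5 times, 2 of the 16 genes were called higher in RD and 4 of the 15 lower in Rh30. Over all genes, that rule called 910 of 17988 higher in RD and 538 of 17803 lower in Rh30. In Rh30, AXL, a receptor tyrosine kinase, fell from 79.1 ± 1.25 to 26.4 ± 2.13 FPKM (SD, n = 3), a log2 fold change of -1.55 (limma adjusted p = 5.41e-05), although AXL is a gene that the study names on these samples and is not independent evidence. CRIM1, a transmembrane protein that binds BMPs, fell from 21.5 ± 1.86 to 7.92 ± 1.83 FPKM (SD, n = 3) in Rh30 and rose from 107.8 ± 6.71 to 138 ± 3.69 FPKM (SD, n = 3) in RD. TGFB2, a TGF-beta ligand, fell from 28.6 ± 1.57 to 16.8 ± 2.39 FPKM (SD, n = 3) in Rh30 and rose from 1.504 ± 0.259 to 3.45 ± 0.640 FPKM (SD, n = 3) in RD. IGFBP3, which binds insulin-like growth factors, rose from 52.0 ± 2.08 to 92.8 ± 1.49 FPKM (SD, n = 3) in RD, and was listed at 0 in the 3 Rh30 Scramble libraries. GADD45A, a stress-induced growth arrest gene, rose from 64.3 ± 1.63 to 90.6 ± 3.06 FPKM (SD, n = 3) in RD.

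**Figure D3:**
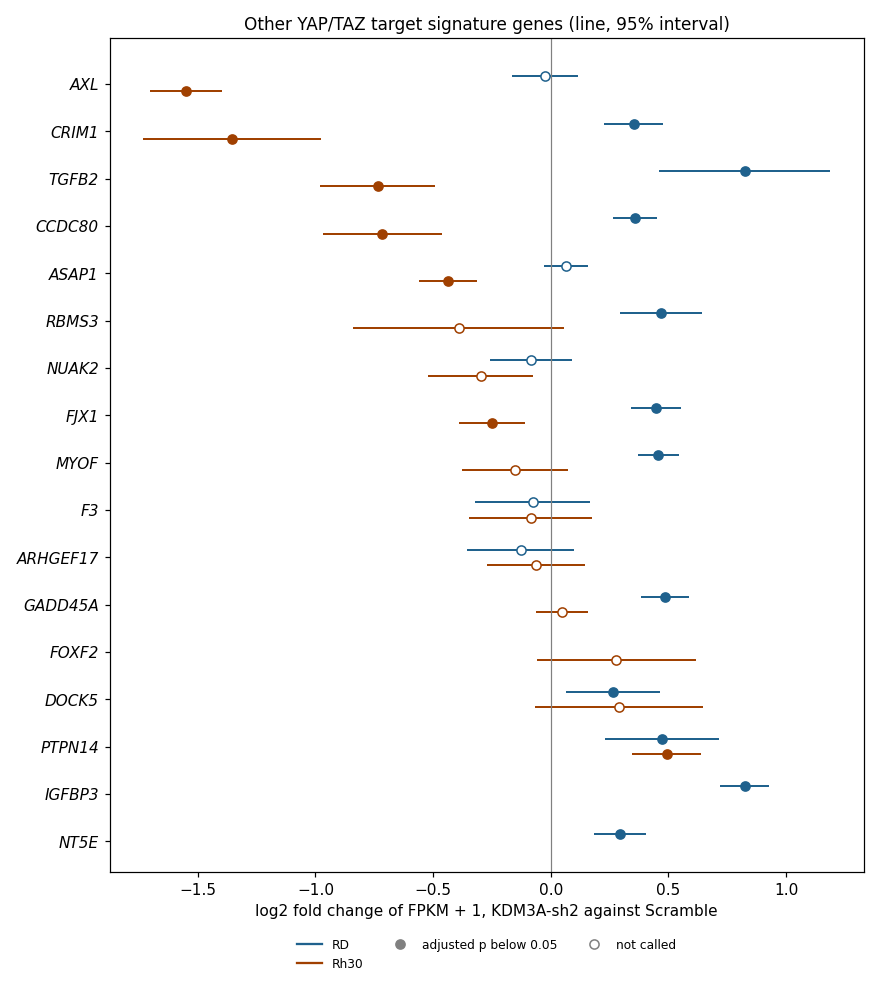
Log2 fold change of FPKM + 1, KDM3A-sh2 against Scramble (horizontal axis), for the 17 other genes of the YAP/TAZ target signature, ordered by the change in Rh30. RD is blue, Rh30 brown, lines are 95% intervals and filled points are called. IGFBP3 and NT5E were not tested in Rh30 and FOXF2 was not tested in RD. RD points lie mostly to the right of 0, with 11 called higher, and 6 Rh30 points are called lower.

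Upstream of YAP and TAZ, the 24 kinases and regulators moved both ways. PTPN14, called higher in both lines, is in this list and in the target signature and is counted in each. In RD, 6 of 24 fell and 6 rose (median 0.03), where 19.5% of all genes tested were called lower and 21.6% higher. In Rh30, 7 of 23 fell and 2 rose (median -0.02), where the shares were 13.2% and 15.3%. The difference between the lines was called negative in 4 of 24 and positive in 3, against 13.4% and 14.4% of all genes. WWC1, at a mean of 0.008 FPKM in Rh30 Scramble, entered that test through RD alone and was not called. The RD counts and those of the difference thus lie near the background. STK3 (MST2) fell in both lines, from 25.2 ± 0.467 to 15.4 ± 0.935 FPKM (SD, n = 3) in RD (log2 fold change -0.68, limma adjusted p = 0.000205) and from 30.0 ± 3.06 to 20.0 ± 0.864 FPKM (SD, n = 3) in Rh30 (-0.56, limma adjusted p = 0.00358). FAT4, an atypical cadherin, rose in both, from 3.50 ± 0.453 to 8.84 ± 0.451 FPKM (SD, n = 3) in RD and from 1.15 ± 0.040 to 2.99 ± 0.078 FPKM (SD, n = 3) in Rh30. DCHS1, the cadherin that binds FAT4, fell from 13.3 ± 0.731 to 6.87 ± 0.252 FPKM (SD, n = 3) in Rh30 (limma adjusted p = 0.000380), and in RD it went from 37.3 ± 0.571 to 34.4 ± 1.16 FPKM (SD, n = 3) without a call. FRMD6 (Willin), a FERM-domain protein of the upstream complex, fell from 34.2 ± 2.57 to 13.6 ± 0.246 FPKM (SD, n = 3) in Rh30 (log2 fold change -1.26, limma adjusted p = 9.82e-05) and rose in RD by 0.17 (limma adjusted p = 0.0258). WWC3, a KIBRA relative, fell in RD from 5.80 ± 0.452 to 3.68 ± 0.357 FPKM (SD, n = 3), with a log2 change of 0.04 and no call in Rh30. Of the other core components, MOB1A (log2 fold changes -0.29 in RD and -0.20 in Rh30) and MOB1B (-0.38 and -0.37) were called lower in both lines. NF2 rose by 0.25 in RD (limma adjusted p = 0.0419), and STK4, LATS1 and SAV1 were not called in either line. These 6 genes were named after their values were seen.

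**Figure D4:**
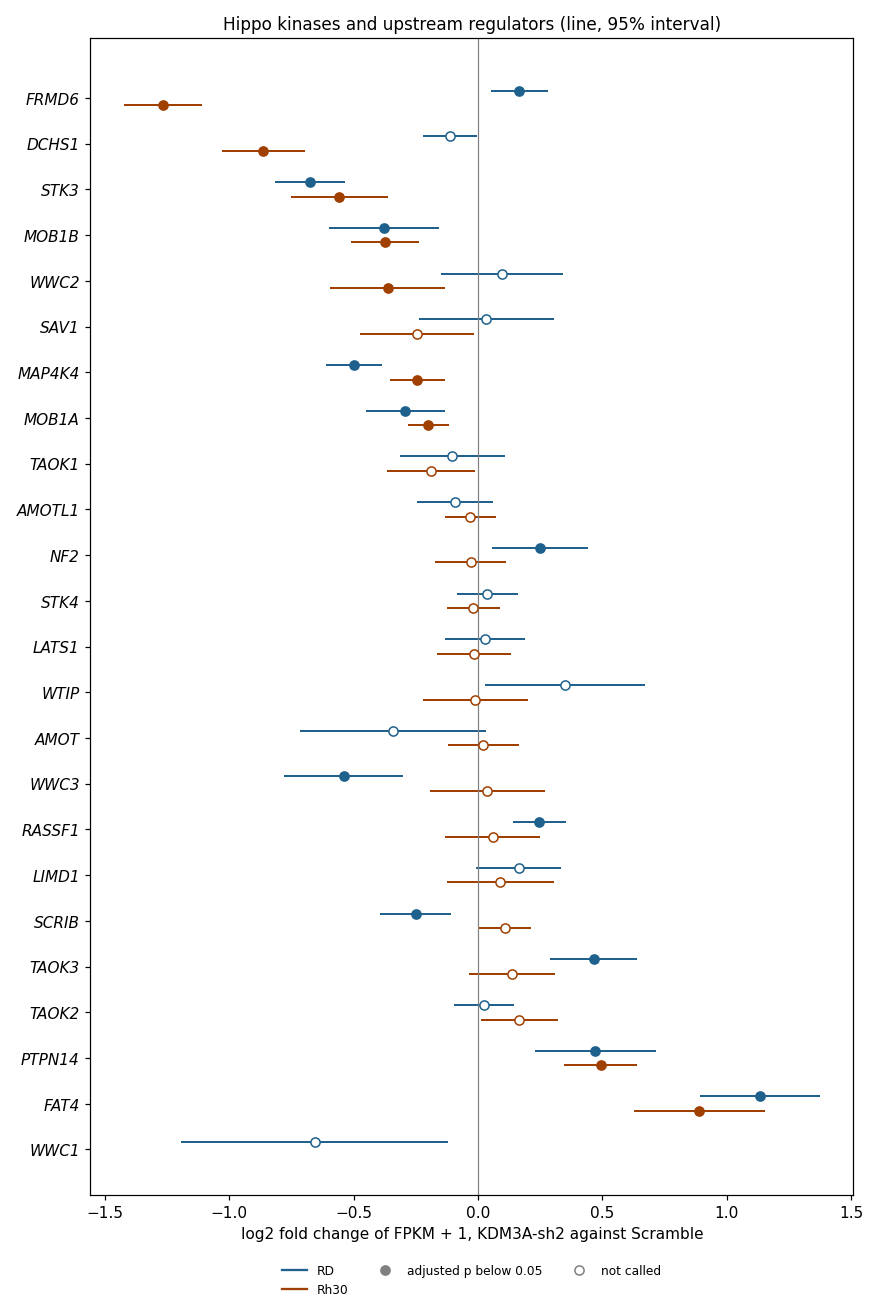
Log2 fold change of FPKM + 1, KDM3A-sh2 against Scramble (horizontal axis), for the 24 kinases and upstream regulators, ordered by the change in Rh30. RD is blue, Rh30 brown, lines are 95% intervals and filled points are called. FRMD6 and DCHS1 lie far to the left in Rh30 only (-1.26 and -0.86), and STK3 and FAT4 are called in the same direction in both lines. WWC1 was not tested in Rh30.

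Of the other TEADs and TEAD cofactors, 5 were tested in each line. In RD 0 were called, where 19.5% of all genes tested were called lower and 21.6% higher. In Rh30 1 was called higher and 0 lower, where the shares were 13.2% and 15.3%. With 5 genes, these counts are not read as a result about the list. VGLL2, a vestigial-like cofactor of skeletal muscle, rose from 20.2 ± 0.484 to 24.1 ± 0.754 FPKM (SD, n = 3) in Rh30 (log2 fold change 0.25, limma adjusted p = 0.0120) and was at 135 ± 4.31 and 128 ± 2.95 FPKM (SD, n = 3) in RD, with no call. TEAD2, TEAD3, VGLL3 and VGLL4 were not called in either line, and VGLL1 was below the filter of a mean of 1 FPKM. The other CCN family genes were scarce. WISP1, WISP2 and WISP3 were below that filter in both lines, and NOV, tested in RD alone, went from 1.49 ± 0.056 to 2.05 ± 0.318 FPKM (SD, n = 3) without a call (limma adjusted p = 0.117).

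Among the genes with the pattern most like CYR61 over the 12 libraries, by Pearson correlation of log2(FPKM + 1) among 11016 genes that averaged 10 FPKM or more, were AXL (r = 0.995), FRMD6 (r = 0.993) and ANKRD1 (r = 0.991). Each of these was high in RD, lower in Rh30 Scramble and lowest in Rh30 KDM3A-sh2 libraries. For CTGF they were LASP1 (r = 0.999), ITGA6 (r = 0.999), UCHL1 (r = 0.998), DUSP6 (r = 0.998) and DENND2A (r = 0.998), a pattern led by the difference between the lines. DUSP6, a phosphatase induced by ERK signalling, had means of 430.1 and 434 FPKM in RD and of 67.5 and 35.6 FPKM in Rh30. CYR61 and CTGF themselves correlated at r = 0.903. Libraries of a group share their line and shRNA, so that the 12 points form 4 clusters and these coefficients are only a description.

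The 7-base word TGAAGCA was counted in the longest annotated 3' UTR of each gene (GENCODE 29), because in earlier work on these data it was found more often among genes that fell in both lines. It is present 1 time each in CYR61, ANKRD1, WWTR1 and TEAD1, and absent from the other 6 genes, CTGF among them. The sites are printed with the word in capitals and 11 bases on each side. They lie at chr1:85583911-85583939 (plus strand) for CYR61, chr10:90912405-90912433 (minus strand) for ANKRD1, chr3:149519392-149519420 (minus strand) for WWTR1 and chr11:12938546-12938574 (plus strand) for TEAD1, in GRCh38.
CYR61: acgacattgtaTGAAGCAcaataaagatt
ANKRD1: agaagtttgaaTGAAGCAagggaaggcat
WWTR1: aaactgaaggaTGAAGCAgatctctgact
TEAD1: atacatcctctTGAAGCAcatccatttct

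Across genes tested in Rh30 with a 3' UTR of at least 50 bases, 17.1% held the word. Of these, 28.1% were called lower, compared with 13.8% of those without it (medians -0.07 and 0.04). In RD the shares called lower were 30.2% and 20.9% (medians -0.05 and 0.03). The word was picked among genes that fell in these same data, so these higher shares are a description and give no support. Genes with and without the word were not matched for 3' UTR length. For the difference between the lines the shares called negative were 16.1% and 17.7%. Of the tested members, the 3 that hold the word (ANKRD1, WWTR1 and TEAD1) were called lower in Rh30, as were 4 of the 5 that lack it. In RD none of those 3 was called lower, and WWTR1 rose. The part of this word in the changes of the members was not tested.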

How the data were processed

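Gene-level FPKM of 12 libraries were deposited by the authors in 1 table. Per the labels and methods, directional poly(A) libraries were sequenced single-end, aligned with GSNAP to GRCh38 and quantified with Cufflinks. SAMtools is also named in the submitters' processing notes. Annotation release and strand setting are not given in the sources used here, and the sources differ on read length. The placeholder value of 999999999 was treated as missing (17 genes), and of repeated identifiers the higher row was kept (120 rows left out). FPKM hold no read counts, so no count model was used.

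Genes averaging 1 FPKM or more over the libraries of a fit were tested on log2(FPKM + 1) with limma 3.58.1 in R 4.3.3 (lmFit, eBayes with trend), two-sided, Benjamini-Hochberg adjusted over all genes, at a threshold of 0.05. The pseudocount understates changes of low genes. Each line was fitted alone, and the difference between lines as an interaction over all 12 libraries. The study used an ANOVA on FPKM, run here as an alternative. The procedure was tested on simulated data. CYR61 and CTGF were not tested, since they were chosen on the readout.

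Named were all 10 members, KDM3A, from each pathway list and line the called genes with the 3 largest absolute changes, and the 5 genes most correlated with CYR61 and with CTGF, of which some are not reported here. The members, lists and this rule were chosen with earlier results of these data known. Where a symbol had several identifiers (CRIM1, SCRIB, PTPRC), the one with the highest mean was used. Alternatives were a pseudocount of 0.1, no filter, at least 10 FPKM in 1 library, rescaling to equal sums, median-ratio scaling, ANOVA, the replicate number as a block, 1 fit over all libraries, a minimum change of 1.5 times, and each library left out. The 1 fit over all libraries and the minimum change were not applied to the difference between the lines. Member positions came from GENCODE 29 and promoter windows from RefSeq. CYR61 and CTGF were looked up there through their newer symbols, and a window was found for CTGF (CCN2) only.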

Additional observations from a re-analysis of the deposited data

Results flagged for a closer look

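Each result below is listed because the test of the difference between the lines (Rh30 minus RD, limma, log2 scale, adjusted p below 0.05) passed. CYR61 and CTGF are left out, since they were chosen on that difference. Among the tested members the differences were -1.91 for ANKRD1, -1.03 for WWTR1, -0.28 for AMOTL2, -0.25 for YAP1 and -0.24 for TEAD4, and for the target KDM3A it was 0.37. Those of YAP1, TEAD4 and KDM3A lost their call under 11, 9 and 12 of 19 alternatives.

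Among the named genes of the wider lists, the difference was -1.71 for CRIM1, -1.56 for TGFB2, -1.53 for AXL, -0.62 for IGFBP3 and -0.44 for GADD45A in the target signature. IGFBP3 passed the filter through RD alone and was listed at 0 in the Rh30 Scramble libraries, so its difference gives only the rise in RD. Upstream it was -1.43 for FRMD6, -0.75 for DCHS1 and 0.58 for WWC3, and among TEAD cofactors 0.32 for VGLL2. Among the genes listed, for CRIM1, TGFB2, FRMD6 and WWTR1 the change was called in both lines with opposite signs.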

How the results depend on the processing

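ANKRD1 in Rh30, WWTR1 in RD and the differences of ANKRD1, WWTR1 and AMOTL2 between the lines kept their direction and call under every alternative run for them. The minimum change of 1.5 times and the 1 fit over all libraries were not run for the differences. AMOTL2 differed by 1.21 times, which is below that minimum. For ANKRD1 in Rh30 the log2 fold change ranged from -2.09 to -1.88, and for WWTR1 in RD from 0.59 to 0.65. A minimum change of 1.5 times lowered the genes called to 1772 (from 7390) in RD, 1120 (from 5066) in Rh30 and 8764 (from 13683) between the Scramble groups, since it is a stricter rule. It left 0 tested members lower in RD and 1 lower in Rh30, and 1 member higher in Rh30 than in RD without depletion. Over all genes, the numbers so called were 862, 538 and 4051. Rescaling to equal sums made 5 members lower and 1 higher in that baseline comparison, where 8146 of 18369 genes were called lower and 5606 higher. Left-out libraries gave 3215 to 4071 calls in Rh30, and 3 to 5 members with a negative difference between the lines.

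Values near 0 changed sign without a call. With equal sums the RD changes were 0.0084 for ANKRD1, 0.015 for AMOTL2, 0.013 for LATS2 and 0.025 for TEAD1. Under median-ratio scaling TEAD1 in RD was 0.0041 and AMOTL2 between Scramble groups 0.0061. With libraries left out, the RD ranges were -0.081 to 0.045 for TEAD1, -0.098 to 0.052 for LATS2, -0.052 to 0.0048 for ANKRD1 and -0.044 to 0.011 for AMOTL2, and TEAD4 between Scramble groups ran from -0.097 to 0.0044.

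Replicate numbers did not pair the libraries, as same-numbered libraries correlated between -0.07 and 0.05 in their deviations. With the replicate block, calls were 6259 in RD, 3421 in Rh30 and 3993 for the difference, and LATS2 and TEAD1 in Rh30 and TEAD4 and KDM3A for the difference missed the threshold (limma adjusted p = 0.0684, 0.0523, 0.0763 and 0.0641). The block changed no other call of a member.

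Of the 192 counts recomputed, 178 stayed within 1.5 times their value. Read depth is unknown, so precision at low FPKM (NOV, WISP genes, VGLL1) cannot be given.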
